A study of Mus musculus with 26 samples.

Results

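The change of the mammary gland from day 12 of pregnancy to day 9 of lactation was measured in the inbred mouse strain QSi5. The comparison took the 8 QSi5 arrays out of 26 in the series, chosen by stage and strain in the sample titles, and subtracted the mean of the 5 pregnancy arrays from the mean of the 3 lactation arrays. All 45037 probe sets other than the array maker's controls were tested. Total RNA of the inguinal gland was hybridised to Affymetrix mouse genome arrays. The labels number the samples of a group as replicates without saying that each came from its own animal, so p-values measure the spread between these samples, which may be technical. The other parental strain, CBA/CaH, was sampled at the same stages (5 and 3 arrays) and entered the fit and the comparison between strains. The remaining 10 arrays came from lactating mice of an Advanced Intercross Line of both strains and were used only to rank probe sets by their level and in 1 alternative fit. No transgene, deletion or drug was named for any of these groups. Suckling, litter size and time of day of sampling were not given in the sources used here.

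On day 12 of pregnancy the mouse gland is still being built. Ducts branch, alveoli bud under progesterone, prolactin and RANKL, and the fat pad that holds them is still prominent. In lactation the alveoli fill the pad and their luminal cells make milk. They secrete caseins and whey proteins through the endoplasmic reticulum and Golgi, bud off triglyceride droplets wrapped in plasma membrane, make lactose in the Golgi, and move calcium, phosphate and trace metals from blood into milk. Prolactin acts on these cells through its receptor, JAK2 and STAT5. Basal myoepithelial cells surround the alveoli and contract to eject the milk, and plasma cells that settle in the gland supply the IgA that is carried into it.

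Values are log2 expression levels per probe set, so a difference of 1 is a change of 2-fold. A gene stands for its brightest probe set over all arrays, and levels of different genes are not compared. A gene was called when the adjusted p of the limma fit (Benjamini-Hochberg, over all probe sets) was under 0.05, and "rose" and "fell" are used of called genes. SE is the standard error of the difference, with n = 5 pregnancy and 3 lactation arrays wherever no array is left out. Array values are given in the order of the replicate numbers. Every difference is a difference per unit of RNA from a whole gland, so fewer cells of a type and less RNA per cell cannot be told apart.

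Some arrays stood apart from their group. The skeletal muscle markers had a median of 11.6 on pregnancy array 3 and 7.25 on pregnancy array 5, against 4.15 to 4.75 on the other pregnancy arrays. The 3' minus 5' value of the Gapdh control was 6.50 on pregnancy array 4 and 1.20 to 1.74 on the others. B and plasma cell markers had a median of 8.11 on lactation array 2, against 5.21 and 5.30. In CBA/CaH the median of the brown fat markers lay 2.43 and 4.54 above that of its group on pregnancy arrays 3 and 5, which enter the fit as well. Each count that opens a group of genes was therefore also taken without these 6 parental arrays. Of QSi5 that setting keeps only pregnancy arrays 1 and 2 and lactation arrays 1 and 3. A call lost there can come from the smaller number of arrays alone. Luminal keratins were bright at both stages, and the marker median of the luminal epithelium was 11.2 to 12.2 at pregnancy and 8.62 to 9.48 at lactation. Pearson correlations over probe sets were 0.921 to 0.988 within pregnancy, 0.976 to 0.985 within lactation and 0.841 to 0.897 between the stages.

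The stage moved a large part of the transcriptome. Of 18193 genes, 6000 rose (33.0%) and 5954 fell (32.7%) from pregnancy to lactation. The 3 lactation arrays all lay above the 5 pregnancy arrays in 5293 genes (29.1%) and all below them in 5129 (28.2%). A rise of at least 1 log2 unit was called in 1385 genes and a fall of that size in 3853. These counts became 2075 and 2520 after quantile normalization, 1578 and 2484 with cyclic loess and 663 and 4864 with array medians equal. At 3 log2 units they were 41 and 241 as deposited. Direction followed the level of the gene. In genes with a mean level of 4 to 5 over all arrays, 58.1% rose and 9.79% fell, whereas at a level of 8 to 9, 9.59% rose and 57.6% fell. Falls made up 40.9% at 6 to 7, 55% at 7 to 8 and 53.7% at 9 to 10. The count of a list is therefore to be set against the share for its level as well. The distribution of values itself was narrower at lactation, with quartiles of 4.18 to 4.22 and 6.61 to 6.67, against 3.82 to 4.03 and 6.81 to 7.20 at pregnancy. With the distributions made equal by quantile normalization 5524 genes rose and 4216 fell. After cyclic loess, which does not force equal distributions, the counts were 4588 and 4374, and with only the medians made equal 3894 and 6986. Over all probe sets the median difference came to 0.19 as deposited and to 0.08, 0.01 and -0.03 in these settings.

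**Figure D1:**
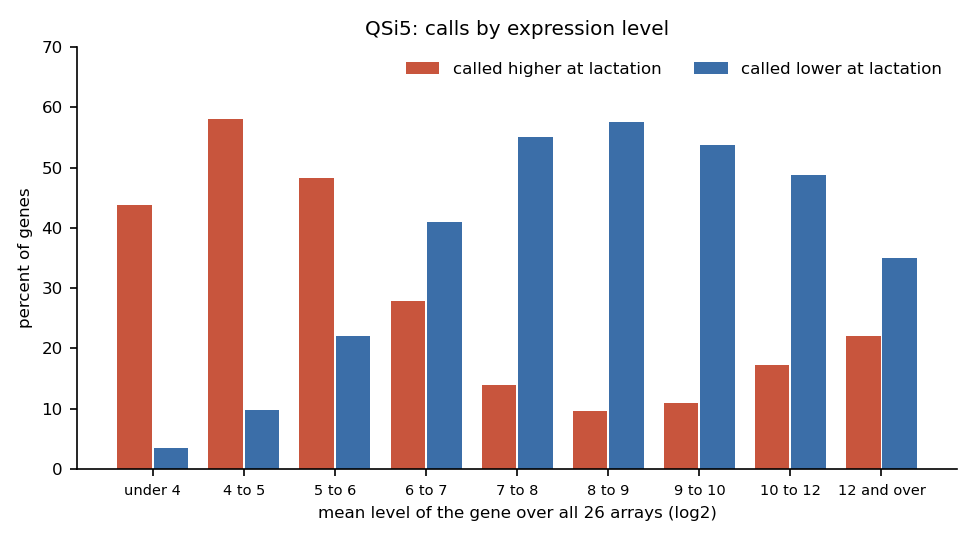
Share of genes called higher and called lower at lactation in QSi5 (percent, y axis) by the mean level of the gene over all 26 arrays (log2, x axis). Rises prevail among dim genes, at 58.1% for a level of 4 to 5, and falls among bright ones, at 57.6% for a level of 8 to 9.

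Csn1s2b, a calcium-sensitive casein, had the highest rise. It read 5.88, 4.68, 5.37, 4.19 and 6.22 at pregnancy and 14.7, 14.7 and 14.8 at lactation, a difference of 9.44 (SE 0.46, adjusted p = 1.48e-09). The lactation arrays lie near the highest value of the table, 15.1, so the difference may be a lower bound. Whether this probe set was saturated was not tested. Egf, the epidermal growth factor that is secreted into milk, read 5.40, 4.90, 5.13, 4.78 and 5.66 at pregnancy and 10.3, 10.2 and 10.4 at lactation. It rose by 5.09 (SE 0.23, adjusted p = 8.99e-10), and no pregnancy array came within 4 log2 units of a lactation array. Ceacam10, a member of the carcinoembryonic antigen family, read 6.67, 5.66, 6.01, 5.12 and 7.15 at pregnancy and 12.9, 12.6 and 12.8 at lactation. It rose by 6.62 (SE 0.39, adjusted p = 7.32e-09), again with no overlap. Wfdc3, a whey acidic protein domain protease inhibitor, rose by 4.96 (SE 0.38, adjusted p = 1.06e-07). Its range was 7.66 to 9.14 at pregnancy and 13.1 to 13.4 at lactation. Lao1, an L-amino acid oxidase of mouse milk, rose by 4.55 (SE 0.50, adjusted p = 2.9e-06), with lactation arrays again near the top of the range. Sftpd, the collectin surfactant protein D, was at 8.58 to 9.64 at pregnancy and 13.5 to 13.7 at lactation and rose by 4.38 (SE 0.33, adjusted p = 8.85e-08). Nupr1, a stress-induced nuclear protein, rose by 4.88 (SE 0.27, adjusted p = 4.3e-09), and its other probe set by 4.62. Isg20, an RNA exonuclease, rose by 4.85 (SE 0.19, adjusted p = 2.93e-10), with arrays at 6.67 to 7.17 at pregnancy and 11.6 to 11.8 at lactation.

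In Gpaa1, a subunit of the GPI transamidase, the probe sets disagreed. The brightest one rose by 4.91 (SE 0.19, adjusted p = 3.55e-10), another by 0.90, and that of the middle level read 8.48 at pregnancy and 8.38 at lactation. Stxbp5l, a syntaxin-binding protein, rose by 4.51 (SE 0.32, adjusted p = 4.06e-08) in its brightest probe set and by 0.76 and 0.75 in the others. The remaining leading rises were those of Atp2b2, Cidea, Ccl28, Slc39a8 and Slc34a2, which are taken up with their groups.

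The deepest fall was that of a Wnt regulator. Rspo1, the secreted R-spondin that amplifies Wnt signals, read 11.1, 11.1, 11.1, 9.91 and 11.4 at pregnancy and 3.88, 3.87 and 4.22 at lactation and fell by 6.94 (SE 0.28, adjusted p = 5.23e-10). Phlda1, a pleckstrin-homology domain protein, read 12.8, 12.9, 12.7, 12.5 and 12.2 at pregnancy and 6.55, 6.44 and 6.93 at lactation. It fell by 5.97 (SE 0.27, adjusted p = 1.07e-09). Bex1, an X-linked adaptor protein best known from neurons, fell by 6.19 (SE 0.30, adjusted p = 1.42e-09), with arrays at 9.23 to 10.3 at pregnancy and 3.44 to 3.78 at lactation. Plscr2, a phospholipid scramblase, was at 8.33 to 9.62 at pregnancy and 3.23 to 3.51 at lactation, a fall of 5.82 (SE 0.55, adjusted p = 7.36e-07). BC006965, known by its cDNA name, fell by 6.22 (SE 0.34, adjusted p = 3.48e-09) and by 1.15 in another probe set, while its dimmest one was higher by 0.47. Armcx4, an armadillo repeat protein that is X-linked as well, fell by 5.46 (SE 0.32, adjusted p = 6.35e-09). Igfbp5, an IGF-binding protein known for its rise in involution, read 12.8, 13.4, 13.1, 11.4 and 12.9 at pregnancy and 7.06, 6.81 and 7.04 at lactation, a fall of 5.75 (SE 0.69, adjusted p = 7.49e-06). Its other probe set, at 8.09 and 7.99, did not pass the test (adjusted p = 0.795).

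Anpep, the aminopeptidase N of the apical membrane, fell by 5.26 (SE 0.45, adjusted p = 2.88e-07). Aplnr, the apelin receptor, read 10.8, 10.1, 11.04, 12.1 and 11.6 at pregnancy and 5.66, 6.10 and 6.01 at lactation and fell by 5.21 (SE 0.35, adjusted p = 2.86e-08), with no overlap. Fam3c, a secreted cytokine-like protein, fell by 4.96 (SE 0.38, adjusted p = 1.06e-07) and by 4.26 in its other probe set. Ly6e, a GPI-anchored protein, fell by 5.56 (SE 0.35, adjusted p = 1.3e-08) in a probe set that can bind related transcripts, while its dimmer probe set was not called (0.32, adjusted p = 0.255). Plb1, a phospholipase B, fell by 5.49 (SE 0.34, adjusted p = 1.28e-08) and by 2.93 in another probe set, and 2 dimmer probe sets of it were called the other way, by up to 0.66. Incenp, a subunit of the chromosomal passenger complex, fell by 5.32 (SE 0.34, adjusted p = 1.8e-08) and by 2.90 in another probe set, with 2 dim probe sets higher by 0.60 and 0.69.

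**Figure D2:**
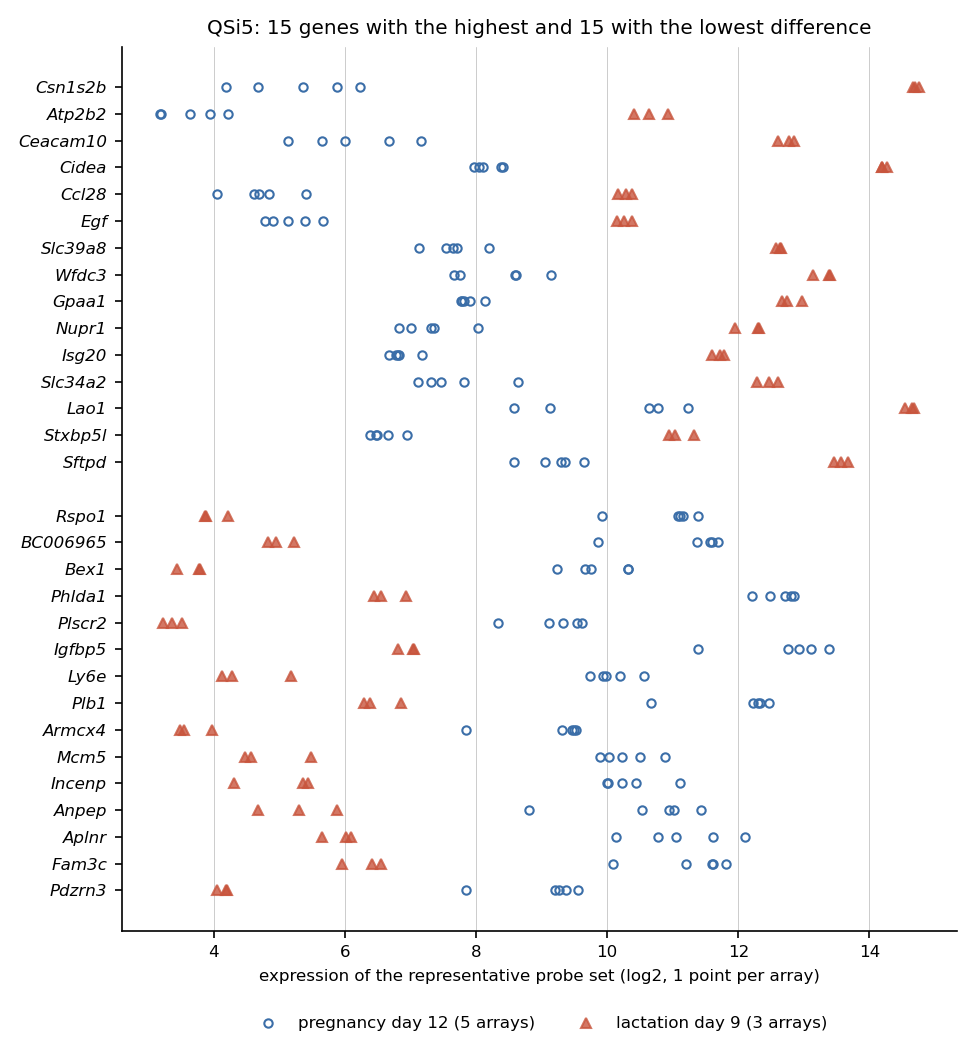
Expression (log2, x axis, 1 point per array) in QSi5 of the 15 leading rises and the 15 leading falls among called genes whose groups do not overlap. Circles are the 5 pregnancy arrays and triangles the 3 lactation arrays, from Csn1s2b at the top to Pdzrn3 at the foot.

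Of 5 caseins, 2 rose and none fell. Csn1s1, Csn1s2a and Csn2 were at 13.1 or more on each of the 8 arrays in their brightest probe sets, which differed by 0.50, 0.29 and 0.11 near the top of the range and were not called. Dimmer probe sets of Csn1s2a had room to move. The one at 8.96 at pregnancy rose by 3.18 (adjusted p = 0.00688), another rose by 0.86 (adjusted p = 0.000162), and the mean of all 5 rose by 1.20 (adjusted p = 0.000971). Csn3, the kappa-casein of the micelle surface, rose by 0.81 (SE 0.31, adjusted p = 0.0327). That call was lost in 8 of 21 alternatives, among them quantile normalization (adjusted p = 0.092), and its arrays were bright (12.9 to 14.6 at pregnancy and 14.9 to 14.97 at lactation). The other probe set of Csn3 went from 6.59 to 9.78, a rise of 3.19 (adjusted p = 0.000337), and the mean of both rose by 2.00. Without the arrays that stood apart 2 caseins rose, with quantile normalization 1, with cyclic loess 5 and with probe sets averaged 3.

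Activated STAT5 dimers bind the palindrome TTCNNNGAA, the STAT5 form of the GAS element. Windows from 250 bases before to 50 bases after each RefSeq start (GRCm38.p6) were searched on both strands. The form was in 5 of 19 windows of casein, whey and milk fat globule genes (26.3%), against 8.3% of all 32851 windows. The 19 do not include Csn1s2b, Csn3, Btn1a1, Xdh, Cidea, Muc15, Rab18 and Dgat1. The 250 bases before the start are shown for Csn1s1 and Csn2, because they place the element in the same part of both promoters. The capitals mark it, 100 bases before the start in Csn1s1 (chr5:87665958-87666207, plus strand) and 93 before it in Csn2 (chr5:87699426-87699675, minus strand).
Csn1s1: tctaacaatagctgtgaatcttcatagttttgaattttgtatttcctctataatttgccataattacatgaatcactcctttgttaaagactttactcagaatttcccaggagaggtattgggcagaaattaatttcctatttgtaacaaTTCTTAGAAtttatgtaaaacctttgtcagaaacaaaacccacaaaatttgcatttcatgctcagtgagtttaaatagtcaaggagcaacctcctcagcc
Csn2: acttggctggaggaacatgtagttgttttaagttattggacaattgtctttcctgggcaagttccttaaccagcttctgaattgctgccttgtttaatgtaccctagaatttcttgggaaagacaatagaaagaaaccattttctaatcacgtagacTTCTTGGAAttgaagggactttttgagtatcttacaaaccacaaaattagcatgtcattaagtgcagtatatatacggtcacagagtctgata
The other windows with a match were those of Csn1s2a, Pigr and Glycam1, the last named here only because its window matched. Csn1s1 and Csn2 were near the top of the range at day 12, while Pigr rose.

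Whey proteins and milk enzymes rose as a group. Of 10 measured members, 9 rose and none fell, with a median difference of 2.43, against 0.04 over all genes. The arrays did not overlap in these 9, against 29.1% of all genes. Leaving out the arrays that stood apart, the count was 9 again. Cel, the bile salt-stimulated lipase of milk, read 10.1, 8.45, 9.41, 7.60 and 10.4 at pregnancy and 13.4, 13.1 and 13.1 at lactation and rose by 4.03 (SE 0.56, adjusted p = 2.82e-05). Pregnancy arrays 2 and 4 were the lowest of its group. Lpo, lactoperoxidase, rose by 3.48 (SE 0.17, adjusted p = 1.63e-09), with arrays at 5.32 to 5.98 at pregnancy and 9.16 to 9.28 at lactation. Nucb2, the nesfatin precursor, rose by 2.74 (SE 0.30, adjusted p = 3.06e-06), and Ltf, the iron-binding lactoferrin, rose by 2.49 (SE 0.37, adjusted p = 4.99e-05). Pigr, the receptor that carries polymeric IgA across the epithelium, read 10.4, 9.52, 10.3, 9.38 and 11.01 at pregnancy and 12.7, 12.1 and 12.6 at lactation, a rise of 2.37 (SE 0.38, adjusted p = 9.13e-05). Wap, the major whey protein of mice, rose by 2.29 (SE 0.58, adjusted p = 0.00362), with all lactation arrays at 15.1. Wfdc18 read 14.3 to 14.6 at pregnancy and 14.5 to 14.6 at lactation, near the ceiling, and its difference is no test.

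Proteins of the milk fat globule rose in 8 of 12 cases and fell in 1, with a median of 1.56. Once the arrays that stood apart were left out, 8 rose and 2 fell. Cidea, a lipid droplet protein that controls the secretion of milk fat, read 8.41, 7.97, 8.05, 8.10 and 8.38 at pregnancy and 14.3, 14.2 and 14.2 at lactation. It rose by 6.03 (SE 0.68, adjusted p = 4.31e-06), the widest gap of the list. Xdh, which holds the membrane to the droplet, rose by 2.32 (SE 0.38, adjusted p = 0.000124), and Rab18, a small GTPase of droplets, by 1.99 (SE 0.33, adjusted p = 0.000125). Fabp3, a cytosolic fatty acid carrier, was at 12.2, 9.41, 12.2, 10.3 and 12.7 at pregnancy and 13.99, 13.96 and 14.02 at lactation. It rose by 2.64 (SE 0.60, adjusted p = 0.00168), and its lowest pregnancy arrays were again 2 and 4. Muc1, the apical mucin, rose by 1.88 (SE 0.21, adjusted p = 3.37e-06). Plin2, the coat protein of droplets in most cells, went against the list. It read 13.5, 13.4, 13.5, 13.5 and 13.7 at pregnancy and 12.8, 12.96 and 12.8 at lactation and fell by 0.67 (SE 0.15, adjusted p = 0.00151), which was not called with cyclic loess (-0.13, adjusted p = 0.54). Muc15 read 12.7, 12.5, 12.7, 10.999 and 12.8 at pregnancy and 12.4, 12.3 and 12.5 at lactation and was not called (adjusted p = 0.855), with pregnancy array 4 the lowest.

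Of 13 members of fatty acid synthesis, 7 rose and 3 fell (median 0.94), with 9 rising and none falling after quantile normalization and 4 rising and 3 falling with array medians equal. Without the arrays that stood apart the counts were 7 and 3. Olah, the thioesterase that ends chains at medium length, read 8.58, 8.63, 8.04, 7.50 and 10.3 at pregnancy and 12.4, 12.6 and 12.4 at lactation and rose by 3.87 (SE 0.52, adjusted p = 2.06e-05). Slc25a1, the carrier that exports citrate from mitochondria, rose by 2.17 (SE 0.39, adjusted p = 0.00023), and Me1, the malic enzyme that yields NADPH, by 1.84 (SE 0.34, adjusted p = 0.000303). Acacb, the acetyl-CoA carboxylase of the mitochondrial surface, rose by 2.45 (SE 0.63, adjusted p = 0.00392), with arrays at 7.41 to 8.52 at pregnancy and 10.2 to 10.4 at lactation. Fasn, the synthase itself, read 12.4, 12.1, 11.5, 11.9 and 12.5 at pregnancy and 12.8, 12.7 and 12.8 at lactation, so that every lactation array lay above every pregnancy array. The difference of 0.69 (adjusted p = 0.114) was not called as deposited, but was after quantile normalization (0.97, adjusted p = 0.0455) and in a fit of the QSi5 arrays alone (adjusted p = 0.0323).

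Desaturases and elongases followed, with 9 of 14 rising and 1 falling, and 6 and 1 both without the arrays that stood apart and with array medians equal. Elovl5, which elongates polyunsaturated chains, rose by 2.98 (SE 0.28, adjusted p = 7.26e-07), with arrays at 9.99 to 10.7 at pregnancy and 13.4 to 13.5 at lactation. Scd3 and Scd2, both delta-9 desaturases, rose by 2.51 (SE 0.33, adjusted p = 1.94e-05) and 1.81 (SE 0.40, adjusted p = 0.00133). Fads1, the delta-5 desaturase, rose by 1.56 (SE 0.31, adjusted p = 0.00065), whereas Fads3 fell by 1.35 (SE 0.28, adjusted p = 0.000862). In the genes of fatty acid uptake and triglyceride assembly the direction depended on the scaling, with 5 rising and 11 falling of 28 as deposited but 8 and 3 after quantile normalization. Once the arrays that stood apart were left out, the counts were 5 and 10. Acsl3, an acyl-CoA synthetase of droplets, fell by 3.02 (SE 0.24, adjusted p = 1.37e-07), with arrays at 7.29 to 8.42 at pregnancy and 4.94 to 5.10 at lactation, and Fabp4, the carrier of fat cells, fell by 2.04 (SE 0.28, adjusted p = 2.64e-05). Lpin1, a phosphatidate phosphatase, rose by 2.52 (SE 0.36, adjusted p = 3.85e-05), with arrays at 7.58 to 8.90 at pregnancy and 10.7 to 10.99 at lactation.

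Cholesterol synthesis showed 7 rises and 3 falls among 18 members, a split that became 4 and 5 with array medians equal and 12 and 0 after quantile normalization. Fdps, farnesyl diphosphate synthase, rose by 1.82 (SE 0.45, adjusted p = 0.00275), and it read 8.16, 8.20, 8.26, 5.77 and 7.64 at pregnancy and 9.46, 9.32 and 9.50 at lactation, with pregnancy array 4 the lowest. Tm7sf2 rose by 1.66 (SE 0.32, adjusted p = 0.000451) and Ebp by 1.14 (SE 0.27, adjusted p = 0.00229), both enzymes of the late steps. Leaving out the arrays that stood apart, 7 rose and 3 fell.

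**Figure D3:**
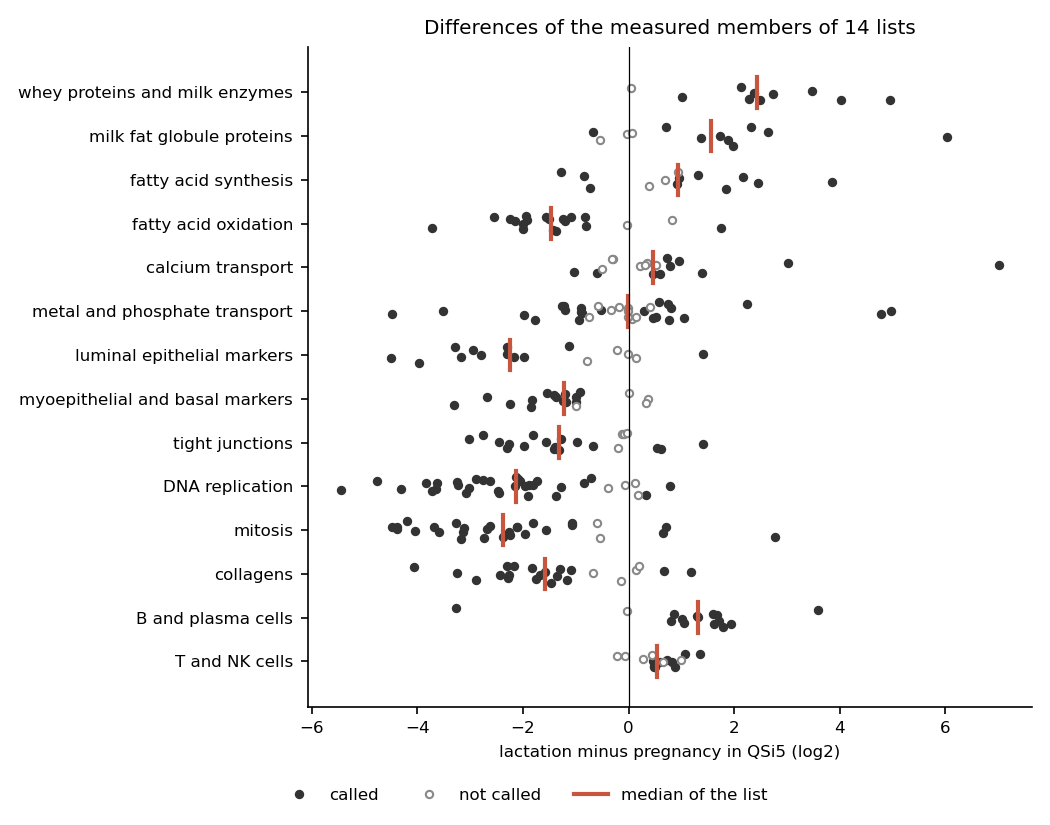
Difference between lactation and pregnancy in QSi5 (log2, x axis) for each measured member of 14 lists of genes, with called members filled, others open and the list median as a bar. The median is 2.43 for whey proteins and milk enzymes, -1.47 for fatty acid oxidation and -2.38 for mitosis.

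Of 20 genes of fatty acid oxidation, 17 fell and 1 rose, with a median of -1.47. The count of falls was 17 without the arrays that stood apart, 10 after quantile normalization and 8 with cyclic loess. Acadl, the long-chain acyl-CoA dehydrogenase, read 10.6, 11.05, 10.6, 9.76 and 10.6 at pregnancy and 6.36, 7.38 and 6.62 at lactation and fell by 3.73 (SE 0.38, adjusted p = 1.46e-06). Slc25a20, the carnitine carrier, fell by 2.55 (SE 0.32, adjusted p = 1.07e-05), Eci2, an enoyl-CoA isomerase, fell by 2.25 (SE 0.16, adjusted p = 3.8e-08), and Hadha, the alpha subunit of the trifunctional protein, fell by 2.00 (SE 0.40, adjusted p = 0.000662). In each of these 4 genes, which were named for their large falls, every lactation array lay below every pregnancy array. The same held in 15 of the 20 members and in 28.2% of all genes. Pyruvate oxidation and the citric acid cycle had 17 falls and 5 rises among 30 members (18 and 5 without the arrays that stood apart), but 11 and 6 after quantile normalization and 9 and 8 with cyclic loess. Its median was -0.95 as deposited and -0.27 and -0.21 in these settings. Falls made up 56.7% of this list as deposited, near the 57.6% of all genes at a mean level of 8 to 9 and the 53.7% at 9 to 10. Mpc1, a subunit of the mitochondrial pyruvate carrier, rose by 2.69 (SE 0.51, adjusted p = 0.0004), with arrays at 9.93, 9.28, 9.85, 7.31 and 9.20 at pregnancy and 11.9, 11.7 and 11.8 at lactation. Pdk4, the kinase that shuts pyruvate dehydrogenase, read 8.65, 8.07, 9.54, 8.23 and 8.80 at pregnancy and 6.18, 5.21 and 5.93 at lactation and fell by 2.89 (SE 0.79, adjusted p = 0.00549), which was not called once the arrays that stood apart were left out (-2.31, adjusted p = 0.0753). Dlst, a subunit of 2-oxoglutarate dehydrogenase, fell by 2.17 (SE 0.26, adjusted p = 6.68e-06), while its dimmer probe sets were not called (0.27, -0.34 and -0.02).

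The pentose phosphate and other NADPH genes fell in 6 of 8 cases, and Me1 was the only one called higher. Idh1, the cytosolic isocitrate dehydrogenase, read 10.1, 10.4, 10.1, 11.2 and 10.6 at pregnancy and 7.66, 7.74 and 7.63 at lactation, a fall of 2.80 (SE 0.29, adjusted p = 1.53e-06). Rpia, an isomerase of the pentose pathway, fell by 1.46 (SE 0.20, adjusted p = 2.13e-05). After quantile normalization 3 fell, and without the arrays that stood apart 6. The respiratory chain changed direction with the scaling, with 7 rises and 19 falls among 68 genes as deposited, 17 and 4 after quantile normalization and 29 and 2 with cyclic loess. Without the arrays that stood apart its counts were 7 and 16. Ndufv1, a core subunit of complex I, fell by 1.57 (SE 0.24, adjusted p = 6.16e-05), while Ndufv3 and Ndufa1 of the same complex rose by 1.28 (SE 0.21, adjusted p = 0.000136) and 1.05 (SE 0.16, adjusted p = 6.55e-05).

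Lactose synthesis turns on Lalba, the regulatory subunit that makes galactosyltransferase a lactose synthase. Lalba read 13.1, 11.8, 13.1, 11.8 and 13.1 at pregnancy and 14.7, 14.7 and 14.7 at lactation and rose by 2.14 (SE 0.34, adjusted p = 9.18e-05), with lactation arrays near the ceiling. Of the 14 members of lactose synthesis and glucose supply, 4 rose and 2 fell, 4 and 2 without the arrays that stood apart, but 2 and 4 with array medians equal and 8 and 1 after quantile normalization. Slc2a1, the main glucose carrier of the gland, read 9.94, 9.21, 9.02, 9.48 and 9.83 at pregnancy and 9.83, 9.76 and 10.3 at lactation. The stages overlapped, and the difference of 0.48 (adjusted p = 0.201) was called only after quantile normalization (1.20, adjusted p = 0.00572) and with cyclic loess (1.33, adjusted p = 0.00347). Hk1, a hexokinase, fell by 2.08 (SE 0.16, adjusted p = 8.22e-08), and Slc2a9, a urate and hexose carrier, rose by 1.42 (SE 0.16, adjusted p = 4.57e-06).

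Among 17 measured members of calcium transport 8 rose and 2 fell, and 8 and 3 without the arrays that stood apart. After quantile normalization 11 rose, and with array medians equal 7. Atp2b2, the plasma membrane pump that moves calcium into milk, read 3.95, 3.20, 3.64, 3.17 and 4.22 at pregnancy and 10.6, 10.4 and 10.9 at lactation. It rose by 7.02 (SE 0.32, adjusted p = 1.09e-09), with no overlap between the stages. Atp2c2, a pump of the Golgi, rose by 3.02 (SE 0.39, adjusted p = 1.55e-05), with arrays at 6.75 to 8.35 at pregnancy and 10.01 to 10.7 at lactation. Orai1, the store-operated channel, rose by 0.96 (SE 0.27, adjusted p = 0.00592), and Casr, the calcium-sensing receptor, by 0.80 (SE 0.22, adjusted p = 0.00529). Atp2a2, the reticulum pump known as SERCA2, fell by 1.04 (SE 0.20, adjusted p = 0.000505), a call lost after quantile normalization (adjusted p = 0.087) and with cyclic loess (adjusted p = 0.196). Of its other probe sets, 1 fell by 1.29 and 1 was called higher, by 0.54.

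Of 33 members of metal and phosphate transport, 11 rose and 12 fell, the same counts as without the arrays that stood apart, but 13 and 5 after quantile normalization and 5 and 14 with array medians equal. Slc39a8, an importer of zinc and manganese, read 7.64, 7.13, 7.71, 7.54 and 8.19 at pregnancy and 12.6, 12.6 and 12.6 at lactation and rose by 4.98 (SE 0.28, adjusted p = 5e-09). Slc34a2, the sodium-phosphate carrier of secretory epithelium, read 7.82, 7.47, 7.31, 7.12 and 8.65 at pregnancy and 12.5, 12.3 and 12.6 at lactation, a rise of 4.78 (SE 0.31, adjusted p = 1.61e-08). Slc30a2, which loads zinc into secretory vesicles and whose loss leaves milk poor in zinc, rose by 2.24 (SE 0.22, adjusted p = 1.12e-06). Slc39a4, the zinc importer of the gut, fell by 3.51 (SE 0.24, adjusted p = 3.8e-08), with arrays at 7.39 to 8.28 at pregnancy and 4.34 to 4.42 at lactation. Slc30a1, the zinc exporter of the plasma membrane, fell by 1.99 (SE 0.22, adjusted p = 2.82e-06). The metallothioneins are small proteins that bind zinc and copper. Mt2 read 11.1, 10.96, 11.2, 11.2 and 11.6 at pregnancy and 6.60, 6.10 and 7.56 at lactation and fell by 4.48 (SE 0.51, adjusted p = 4.39e-06). Mt1 read 12.7, 12.3, 12.7, 12.9 and 12.98 at pregnancy and 11.2, 10.5 and 11.2 at lactation and fell by 1.77 (SE 0.29, adjusted p = 0.000125).

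Water and ion carriers gave 6 rises and 8 falls among 22 members, 6 and 7 without the arrays that stood apart, 6 and 6 after quantile normalization and 3 and 8 with array medians equal. Aqp5, a water channel of ducts, read 10.1, 10.2, 9.66, 9.52 and 10.05 at pregnancy and 5.49, 5.05 and 5.66 at lactation, a fall of 4.49 (SE 0.20, adjusted p = 8.14e-10). Atp1b1, the beta subunit of the sodium pump, fell by 2.76 (SE 0.17, adjusted p = 1.32e-08). Further probe sets of it fell by 4.915, 1.45 and 1.885, and the dimmest was called higher, by 1.00. Kcnn4, a calcium-activated potassium channel, fell by 2.13 (SE 0.30, adjusted p = 2.74e-05). Slc5a5, the iodide carrier that supplies iodide to milk, rose by 1.11 (SE 0.24, adjusted p = 0.00107), and Slc4a4, a bicarbonate carrier, by 1.23 (SE 0.25, adjusted p = 0.000796). Amino acid transporters had 12 rises and 8 falls among 34, 10 and 5 without the arrays that stood apart, but 7 and 11 with array medians equal. Slc7a7 rose by 1.39 (SE 0.21, adjusted p = 6.47e-05) and Slc7a4 by 1.20 (SE 0.17, adjusted p = 3.43e-05), whereas Slc43a2 and Slc1a5 fell by 2.38 (SE 0.21, adjusted p = 3.85e-07) and 2.33 (SE 0.43, adjusted p = 0.000328). For Slc43a2 another probe set fell by 3.33 (adjusted p = 2.47e-09), and the dimmest was called higher, by 0.29.

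No cytosolic aminoacyl-tRNA synthetase of 19 rose and 11 fell as deposited, 9 without the arrays that stood apart, while 4 rose and 5 fell after quantile normalization. The list median was 9.27 to 9.45 on the pregnancy arrays and 8.36 to 8.95 on the lactation arrays. Falls made up 57.9% of the list, against 57.6% of all genes at a mean level of 8 to 9 and 53.7% at 9 to 10. The share of falls was thus near that for the level. Rars, the arginyl enzyme, fell by 1.79 (SE 0.18, adjusted p = 1.74e-06), with arrays at 10.1, 10.1, 9.75, 9.67 and 9.60 at pregnancy and 7.91, 7.88 and 8.38 at lactation, and Vars, the valyl enzyme, fell by 1.68 (SE 0.16, adjusted p = 7.85e-07). Asns, asparagine synthetase and a target of the amino acid response, rose by 1.64 (SE 0.22, adjusted p = 2e-05), and Trib3, another target of that response, by 1.12 (SE 0.16, adjusted p = 4.37e-05). Cytosolic ribosomal proteins had 1 rise and 23 falls among 43 members (1 and 26 without the arrays that stood apart), but 14 and 6 with cyclic loess. Rps19 fell by 1.22 (SE 0.19, adjusted p = 7.15e-05), with arrays at 12.8 to 13.2 at pregnancy and 11.7 to 12.1 at lactation.

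Of 33 genes of folding and stress in the endoplasmic reticulum, 8 rose and 15 fell (10 and 11 without the arrays that stood apart), against 14 and 7 after quantile normalization. The calnexin gene Canx fell by 2.02 (SE 0.16, adjusted p = 1.74e-07) and Hsp90b1, the chaperone GRP94, fell by 1.92 (SE 0.25, adjusted p = 1.43e-05). In the translocon and vesicle coats 7 rose and 16 fell of 49, 8 and 14 without the arrays that stood apart, but 25 and 3 after quantile normalization. Ssr4, a subunit of the translocon-associated complex, read 11.8, 11.1, 11.8, 10.03 and 11.6 at pregnancy and 13.6, 13.5 and 13.4 at lactation and rose by 2.25 (SE 0.37, adjusted p = 0.000111). Its other probe sets were not called (-0.03, adjusted p = 0.884, and 0.41, adjusted p = 0.0649). Srpr, the docking protein of the signal recognition particle, rose by 1.38 (SE 0.19, adjusted p = 3.14e-05). Sec23a, a COPII coat subunit, fell by 2.19 (SE 0.28, adjusted p = 1.2e-05), with arrays at 7.61 to 8.98 at pregnancy and 6.19 to 6.55 at lactation.

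Elf5, the alveolar transcription factor downstream of prolactin, read 12.9, 12.6, 12.6, 10.98 and 13.1 at pregnancy and 12.5, 12.6 and 12.4 at lactation and differed by 0.06 (adjusted p = 0.89). Stat5a differed by -0.61 (adjusted p = 0.13), and by -0.89 without pregnancy array 4 (adjusted p = 0.00767). Its other probe set fell by 2.90 (adjusted p = 0.00339), the mean of both was called lower (-1.75, adjusted p = 0.00551), and 5 of 21 alternatives called a fall. Stat5b fell by 1.68 (SE 0.27, adjusted p = 0.000106), with 1 dimmer probe set called higher. In the list of prolactin and STAT5 signalling 2 of 19 rose and 8 fell, 1 and 8 without the arrays that stood apart, but 5 and 6 after quantile normalization and 4 and 6 with cyclic loess. The list median turned from -0.61 to 0.09 and 0.05 in these settings. Cebpb, a transcription factor needed for lobuloalveolar growth, fell by 2.65 (SE 0.23, adjusted p = 2.95e-07). Cav1, the caveolin that binds JAK2, fell by 2.87 (SE 0.29, adjusted p = 1.3e-06), with arrays at 11.3 to 11.7 at pregnancy and 8.17 to 8.91 at lactation. Id2, an inhibitor of basic helix-loop-helix factors that alveolar growth needs, fell by 3.12 (SE 0.30, adjusted p = 9.1e-07). Tph1, the serotonin-making hydroxylase that prolactin induces in the gland, fell by 2.78 (SE 0.31, adjusted p = 3.96e-06), with arrays at 7.69, 7.70, 7.95, 6.92 and 7.47 at pregnancy and 5.32, 4.24 and 4.74 at lactation.

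Pgr, the progesterone receptor, read 7.52, 8.30, 7.54, 7.98 and 6.41 at pregnancy and 5.04, 4.69 and 4.79 at lactation and fell by 2.71 (SE 0.32, adjusted p = 5.97e-06), and 2 dimmer probe sets were called higher, by up to 0.68. Its paracrine target Wnt4 fell by 2.88 (SE 0.32, adjusted p = 3.41e-06), with arrays at 7.56 to 9.55 at pregnancy and 5.79 to 6.17 at lactation. Tnfsf11, which encodes RANKL, fell by 1.13 (SE 0.32, adjusted p = 0.00758), with arrays at 6.37, 6.55, 6.62, 4.93 and 6.64 at pregnancy and 5.11, 5.21 and 4.97 at lactation. The other probe set of Tnfsf11 went from 7.69 to 3.29, a much deeper fall of 4.40 (adjusted p = 1.01e-06). Esr1, the oestrogen receptor, rose by 1.07 (SE 0.22, adjusted p = 0.000671), with arrays at 8.12 to 8.92 at pregnancy and 9.40 to 9.66 at lactation, and Greb1, an oestrogen target, by 1.62 (SE 0.15, adjusted p = 8.54e-07). Foxa1, the pioneer factor of oestrogen receptor binding, fell by 2.33 (SE 0.27, adjusted p = 5.66e-06). Cxcr4, the CXCL12 receptor, read 8.46, 9.10, 8.53, 8.03 and 8.16 at pregnancy and 3.85, 5.24 and 3.80 at lactation, a fall of 4.16 (SE 0.33, adjusted p = 1.28e-07). Of 16 steroid receptor and mediator genes 5 rose and 9 fell, with 5 and 10 without the arrays that stood apart and 5 and 7 after quantile normalization.

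Wnt, EGF and IGF genes each held a few large changes. Among 43 Wnt pathway genes 17 rose and 16 fell, 15 and 15 without the arrays that stood apart, and 8 and 18 with array medians equal. Beside Rspo1, the inhibitor Wif1 fell by 4.35 (SE 0.61, adjusted p = 3.08e-05), and read 7.94, 8.28, 7.31, 5.27 and 7.83 at pregnancy and 2.89, 2.98 and 3.05 at lactation. Pregnancy array 4 was the lowest of its group and still above lactation. The ligand Wnt5b fell by 4.27 (SE 0.25, adjusted p = 6.77e-09), with arrays at 8.78 to 9.60 at pregnancy and 4.87 to 5.13 at lactation. The secreted inhibitor Sfrp2 rose by 2.98 (SE 0.46, adjusted p = 7.68e-05), with arrays at 5.82, 5.94, 6.73, 6.45 and 6.20 at pregnancy and 9.15, 9.30 and 9.18 at lactation, and Rspo3 rose by 1.08 (SE 0.17, adjusted p = 7.68e-05). Of 14 EGF family genes 8 rose (57.1%) and 3 fell, 8 and 1 without the arrays that stood apart, and 2 and 2 with cyclic loess. The list median was 4.91 to 5.25 on the pregnancy arrays and 5.51 to 5.91 on the lactation arrays. Of all genes with a mean level of 4 to 5 over all arrays, 58.1% rose, and at 5 to 6 48.2%. The share of rises in the list was thus near the first and above the second. Erbb2, the co-receptor, fell by 1.86 (SE 0.16, adjusted p = 2.27e-07), while Epgn, a ligand, rose by 0.82 (SE 0.19, adjusted p = 0.00157), and was not called with cyclic loess (0.35, adjusted p = 0.111). Of 14 IGF and insulin genes 2 rose and 6 fell, 2 and 5 without the arrays that stood apart, but 6 and 4 after quantile normalization. Beside Igfbp5, Igfbp2 read 9.87, 9.47, 10.5, 9.73 and 8.87 at pregnancy and 6.56, 5.48 and 6.47 at lactation and fell by 3.51 (SE 0.38, adjusted p = 2.7e-06), and Igfbp4 fell by 3.39 (SE 0.48, adjusted p = 3.61e-05). Igf2r, the receptor that clears IGF2, rose by 1.53 (SE 0.37, adjusted p = 0.00245), with arrays at 7.04 to 8.63 at pregnancy and 8.96 to 9.68 at lactation.

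Of 16 luminal markers 11 fell and 1 rose, with a median of -2.24, 10 and 1 without the arrays that stood apart, and 11 and 2 with cyclic loess. Krt8, a luminal keratin, read 13.02, 12.9, 12.9, 13.1 and 12.9 at pregnancy and 9.69, 9.35 and 9.94 at lactation and fell by 3.30 (SE 0.19, adjusted p = 4.65e-09). Krt19 fell by 3.98 (SE 0.30, adjusted p = 6.98e-08), Cdh1, the epithelial cadherin, fell by 3.17 (SE 0.30, adjusted p = 8.13e-07), and Kit, a progenitor receptor, fell by 4.49 (SE 0.53, adjusted p = 6.27e-06). Ly6d, a surface protein, was the one called higher, by 1.41 (SE 0.14, adjusted p = 1.41e-06). Cd24a differed by -0.21 (adjusted p = 0.248), was not called as deposited, and its sign turned with cyclic loess (0.35, adjusted p = 0.0498). Of 18 basal and myoepithelial markers 14 fell and none rose, and 10 fell and 1 rose without the arrays that stood apart. After quantile normalization 11 fell and 1 rose, and with cyclic loess 9 and 1. Trp63, the basal transcription factor p63, read 7.59, 7.72, 7.68, 7.26 and 8.01 at pregnancy and 4.29, 4.28 and 4.48 at lactation and fell by 3.31 (SE 0.26, adjusted p = 1.25e-07), with 1 other probe set called higher. Krt14 fell by 2.67 (SE 0.22, adjusted p = 1.74e-07) and by 1.71 in another probe set, again with 1 dimmer probe set higher. Mylk, the myosin light chain kinase, fell by 1.83 (SE 0.29, adjusted p = 8.86e-05). Itga6 read 10.1, 10.98, 11.2, 9.19 and 7.71 at pregnancy and 10.1, 9.98 and 10.5 at lactation, and with that spread its difference of 0.36 was not called (adjusted p = 0.663).

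Of 21 tight junction genes 14 fell and 3 rose, with a median of -1.33, and 14 fell and 2 rose without the arrays that stood apart. Quantile normalization gave 13 falls and 4 rises. Cldn1 fell by 3.03 (SE 0.36, adjusted p = 6.52e-06), with arrays at 7.46, 7.36, 7.32, 5.62 and 7.46 at pregnancy and 4.25, 3.67 and 4.13 at lactation, and Tjp3, a scaffold protein, fell by 2.76 (SE 0.16, adjusted p = 6.77e-09). The dimmer probe sets of Cldn1 were not called (0.20, -0.04 and 0.10). Cldn4 fell by 2.31 (SE 0.43, adjusted p = 0.000371). Cldn8, a barrier claudin, rose by 1.41 (SE 0.42, adjusted p = 0.00943), with arrays at 9.96, 9.86, 10.2, 8.25 and 10.4 at pregnancy and 11.2, 10.9 and 11.2 at lactation, with pregnancy array 4 the lowest. Integrins and laminins had 10 falls and 3 rises among 25 (8 and 3 without the arrays that stood apart, 7 and 3 both after quantile normalization and with cyclic loess, 14 and 3 with array medians equal). Itgb8, which activates latent TGF-beta, read 9.34, 9.01, 8.97, 8.50 and 9.34 at pregnancy and 4.58, 4.17 and 4.03 at lactation, a fall of 4.77 (SE 0.27, adjusted p = 5.58e-09). Itga8 rose by 1.39 (SE 0.28, adjusted p = 0.000622).

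Of 35 DNA replication genes 29 fell and 2 rose, with a median of -2.13, and of 29 mitosis genes 24 fell and 3 rose, with a median of -2.38. Without the arrays that stood apart the counts were 29 and 2, and 25 and 2, and after quantile normalization 27 and 3, and 25 and 3. Every lactation array lay below every pregnancy array in 27 and 23 of them, against 28.2% of all genes. Mcm5, a subunit of the MCM helicase that opens replication origins, read 10.2, 10.5, 9.88, 10.9 and 10.03 at pregnancy and 4.48, 5.49 and 4.57 at lactation and fell by 5.46 (SE 0.27, adjusted p = 1.94e-09). Its partner Mcm7 read 10.7, 11.2, 10.4, 11.04 and 10.6 at pregnancy and 5.63, 6.37 and 6.04 at lactation, a fall of 4.78 (SE 0.25, adjusted p = 2.7e-09). Rfc4, of the clamp loader, fell by 4.31 (SE 0.32, adjusted p = 6.44e-08), and Rrm2, which makes deoxynucleotides, fell by 3.84 (SE 0.35, adjusted p = 4.78e-07). Pregnancy array 4 was the highest of its group in Mcm5, Rfc4 and Rrm2. Top2a, the topoisomerase that untangles sister chromatids, fell by 4.48 (SE 0.25, adjusted p = 4.51e-09) with 1 dimmer probe set higher, Birc5, survivin, fell by 4.39 (SE 0.21, adjusted p = 1.44e-09), and Ccna2, cyclin A2, fell by 4.06 (SE 0.21, adjusted p = 2.77e-09). Cdc20, the activator of the anaphase-promoting complex, read 10.9, 11.3, 10.7, 11.3 and 10.7 at pregnancy and 6.39, 6.998 and 6.40 at lactation and fell by 4.38 (SE 0.24, adjusted p = 4.08e-09). Mki67, the proliferation antigen Ki-67, read 10.5, 11.2, 10.6, 9.31 and 10.3 at pregnancy and 7.66, 7.78 and 8.57 at lactation and fell by 2.38 (SE 0.35, adjusted p = 4.77e-05).

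The exceptions depended on the probe set. Tpx2, a spindle assembly factor, rose by 2.78 (SE 0.14, adjusted p = 1.47e-09) in its brightest probe set and by 2.41 in another, but fell by 2.21 and 1.30 in the remaining pair. Foxm1, a mitotic transcription factor, rose by 0.65 (SE 0.11, adjusted p = 0.000229), and 1 dimmer probe set was lower by 0.88. With all probe sets of a gene averaged, Foxm1 was not called (0.07, adjusted p = 0.484), nor was Orc1 (0.29, adjusted p = 0.0611), a subunit of the origin recognition complex that rose by 0.79 (SE 0.18, adjusted p = 0.0017) in its brighter probe set. Cenpa, the centromeric histone, rose by 0.72 (SE 0.27, adjusted p = 0.0303) in its brightest probe set, and by 1.13 in the dimmest, while the third fell by 4.01. The mean over its probe sets was lower at lactation (-0.72, adjusted p = 0.00101).

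E2F factors bind the promoters of many replication genes through forms such as TTTCCCGC, TTTGGCGC, TTTGCCGC and TTTCGCGC. Searched on both strands, any of these was in 14 of 36 windows of DNA replication genes (38.9%), against 2.3% of all windows, and in none of the 19 windows of milk genes. The forms can overlap on opposite strands. A match does not go with a fall alone, since Orc1, which rose in its brighter probe set, held 1 that begins 27 bases before its start. The 250 bases before the start are shown for Mcm5 and Mcm7, which had the deepest falls of the list. Capitals mark the matches. In Mcm5 (chr8:75109259-75109508, plus strand) an overlapping pair begins 153 and 149 bases before the start, and in Mcm7 (chr5:138171884-138172133, minus strand) 1 match begins 165 bases before it.
Mcm5: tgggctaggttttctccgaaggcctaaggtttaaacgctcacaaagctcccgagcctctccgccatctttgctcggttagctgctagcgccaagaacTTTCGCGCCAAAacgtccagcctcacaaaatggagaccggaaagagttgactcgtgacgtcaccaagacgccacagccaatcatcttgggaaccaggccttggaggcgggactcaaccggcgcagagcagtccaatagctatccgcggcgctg
Mcm7: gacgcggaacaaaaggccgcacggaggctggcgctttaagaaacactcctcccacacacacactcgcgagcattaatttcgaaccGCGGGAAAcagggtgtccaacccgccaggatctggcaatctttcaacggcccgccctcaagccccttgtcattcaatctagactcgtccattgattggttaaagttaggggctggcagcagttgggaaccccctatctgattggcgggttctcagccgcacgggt
A match is a description of these letters and not a measured binding site.

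**Figure D4:**
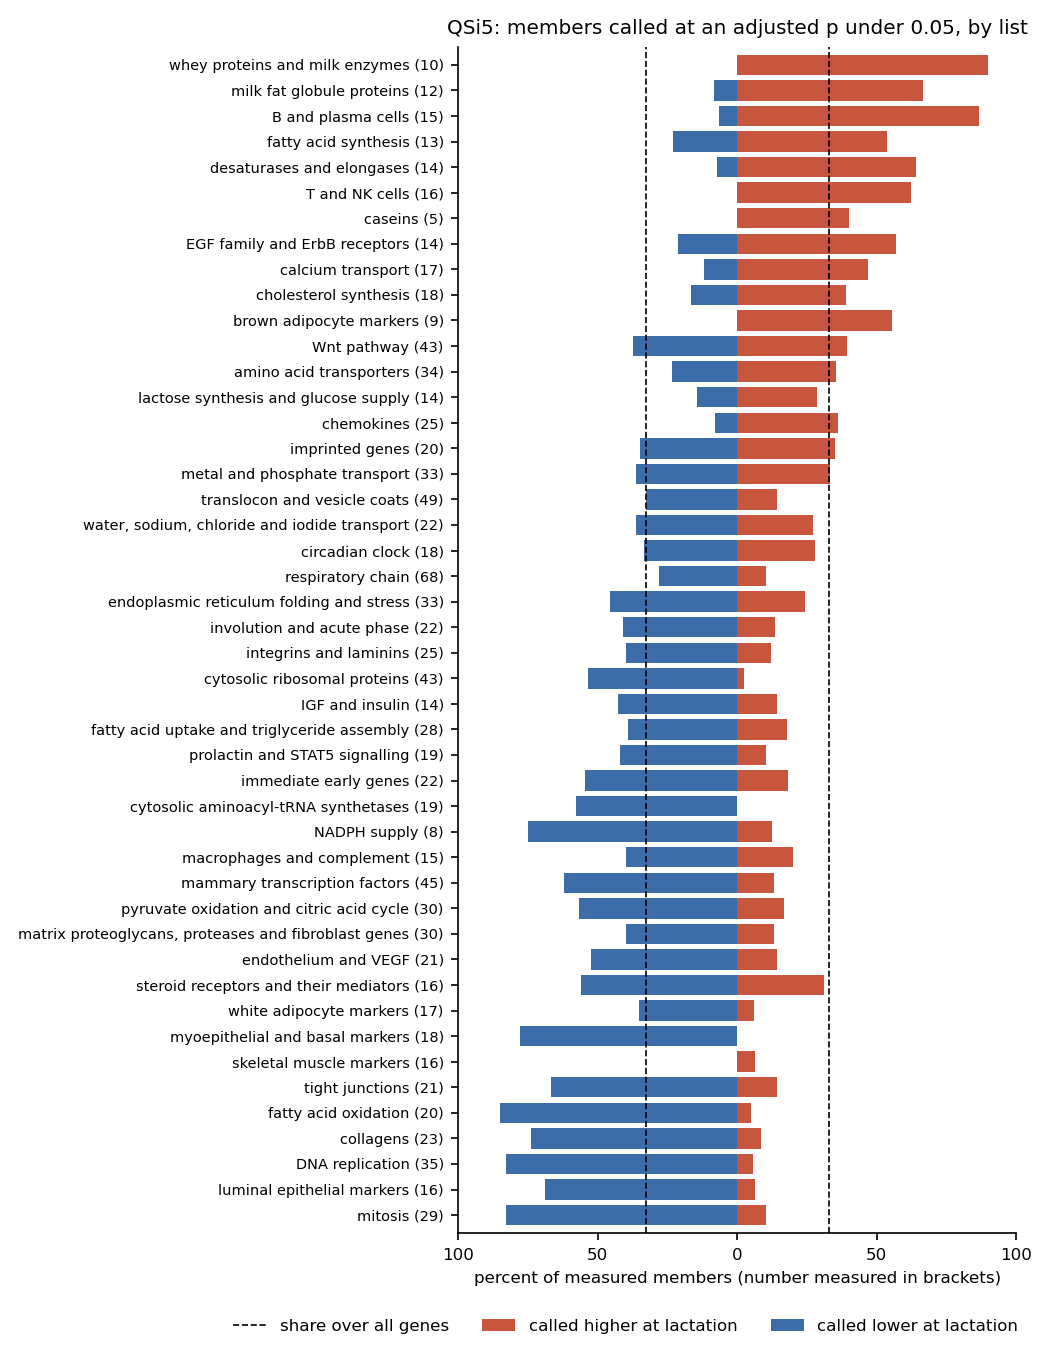
Share of the measured members of each of 46 lists of genes called higher (right) and called lower (left) at lactation in QSi5, ordered by the median difference of the list. Dashed lines mark the share over all genes, 33.0% higher and 32.7% lower.

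Of 23 collagens 17 fell and 2 rose, with a median of -1.58, 11 and 2 without the arrays that stood apart, and 13 and 2 after quantile normalization. The 3 deepest falls of the list were those of basement membrane chains. Col4a5 read 9.41, 8.93, 9.14, 6.85 and 9.66 at pregnancy and 4.61, 4.66 and 4.93 at lactation and fell by 4.06 (SE 0.54, adjusted p = 2.03e-05), Col4a1 fell by 3.26 (SE 0.26, adjusted p = 1.6e-07) and Col4a2 fell by 2.88 (SE 0.29, adjusted p = 1.4e-06). Col1a1, of the fibrils, read 9.62, 9.01, 10.4, 9.07 and 8.79 at pregnancy and 7.63, 6.51 and 7.14 at lactation and fell by 2.29 (SE 0.46, adjusted p = 0.000641). Col4a3, a dimmer chain of the same family, rose by 1.19 (SE 0.16, adjusted p = 2.55e-05). Of 30 matrix and fibroblast genes 12 fell and 4 rose, 8 and 4 without the arrays that stood apart, 9 and 3 with cyclic loess and 15 and 1 with array medians equal. Postn, periostin, fell by 2.66 (SE 0.32, adjusted p = 6.86e-06), Lum, lumican, fell by 2.57 (SE 0.44, adjusted p = 0.000174), and Loxl1, a cross-linking enzyme, fell by 2.84 (SE 0.39, adjusted p = 2.36e-05). Timp2, an inhibitor of matrix proteases, rose by 2.03 (SE 0.19, adjusted p = 6.65e-07) in its brightest probe set, another fell by 1.28, and averaged over all of them the difference of -0.05 did not pass the test (adjusted p = 0.844).

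Vessel genes fell in 11 of 21 cases and rose in 3, 6 and 4 without the arrays that stood apart, and 9 and 4 with cyclic loess. Vwf, the endothelial clotting factor, read 6.92, 7.30, 6.95, 7.33 and 7.28 at pregnancy and 4.10, 4.48 and 4.45 at lactation and fell by 2.81 (SE 0.24, adjusted p = 2.44e-07). Cdh5, the endothelial cadherin, fell by 1.77 (SE 0.24, adjusted p = 2.18e-05), Esam fell by 2.03 (SE 0.24, adjusted p = 5.18e-06), and Angpt1, the ligand of the TIE2 receptor, rose by 1.11 (SE 0.28, adjusted p = 0.00314). Fat cell markers had 6 falls and 1 rise among 17. That count was 3 and 1 without the arrays that stood apart, 5 and 1 after quantile normalization, 3 and 0 with cyclic loess and 10 and 1 with array medians equal. Cebpa, a factor of fat cell differentiation, fell by 2.79 (SE 0.22, adjusted p = 1.38e-07), with arrays at 10.1 to 10.6 at pregnancy and 7.35 to 7.73 at lactation. Pck1 fell by 3.41 (SE 0.84, adjusted p = 0.00289). Adipoq, adiponectin, read 11.4, 11.2, 10.9, 11.4 and 9.99 at pregnancy and 9.51, 8.65 and 9.43 at lactation, and its fall of 1.79 (SE 0.72, adjusted p = 0.0425) was lost in 12 of 21 alternatives, among them quantile normalization (-1.09, adjusted p = 0.245). Lep, leptin, read 7.98, 7.35, 6.56, 9.17 and 7.36 at pregnancy and 6.71, 6.50 and 6.24 at lactation (difference -1.20, adjusted p = 0.179). Brown fat markers had 5 rises (55.6%) and no fall among 9, the same without the arrays that stood apart, 3 rises with cyclic loess, and 1 with probe sets averaged (median 0.09). Of all genes with a mean level of 4 to 5, 58.1% rose, and at 5 to 6 48.2%. The lowest difference among these markers, -2.26, was not called. Ppargc1a, a coactivator of thermogenic genes, rose by 1.75 (SE 0.25, adjusted p = 4.19e-05) in its brightest probe set but fell by 1.42 and 1.37 in the dimmest pair, and averaged over all 5 it differed by -0.21 (adjusted p = 0.347). Ucp1, the defining uncoupler, differed by -0.38 (adjusted p = 0.82), with arrays at 3.84 to 6.49 at pregnancy and 4.68 to 4.91 at lactation.

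Skeletal muscle markers rose in 1 of 16 cases and did not fall in any, with pregnancy arrays 3 and 5 far above the rest. Tnnc2, a fast muscle troponin, read 4.15, 3.77, 13.000, 4.62 and 8.21 at pregnancy and 3.82, 4.25 and 4.12 at lactation. Leaving out the arrays that stood apart, 7 rose and 1 fell. The list median lay at 4.23 to 5.06 on the QSi5 arrays kept. With no QSi5 array left out, 58.1% of all genes with a mean level of 4 to 5 rose, and 48.2% at 5 to 6. These rises are thus not set apart from the share for the level. The part of muscle RNA in the other differences of pregnancy arrays 3 and 5 was not tested beyond leaving these arrays out.

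Of 15 B and plasma cell genes 13 rose and 1 fell, with a median of 1.32. Once the arrays that stood apart were left out, lactation array 2 included, 10 rose and 1 fell, and with cyclic loess 9 and 1. Jchain, which joins IgA into dimers, read 6.79, 6.70, 7.20, 7.94 and 6.57 at pregnancy and 11.2, 10.2 and 10.6 at lactation and rose by 3.60 (SE 0.82, adjusted p = 0.00163). Its lactation array 2 was the lowest of the 3, unlike in Cd22 and Fcer2a. Mzb1, a plasma cell chaperone, read 5.68, 5.59, 5.95, 6.42 and 5.75 at pregnancy and 7.87, 8.35 and 7.21 at lactation, a rise of 1.93 (SE 0.27, adjusted p = 2.64e-05). Cd22, a B cell receptor, read 6.78, 6.48, 6.58, 6.58 and 6.07 at pregnancy and 7.87, 9.02 and 7.67 at lactation and rose by 1.69 (SE 0.24, adjusted p = 3.77e-05). Fcer2a, the low-affinity IgE receptor, read 3.98, 3.97, 4.14, 4.30 and 3.62 at pregnancy and 4.99, 7.72 and 4.43 at lactation. Its rise of 1.71 (SE 0.49, adjusted p = 0.0072) rests partly on array 2, without which the difference was 0.71 (adjusted p = 0.0105). Sdc1, a plasma cell marker that epithelium expresses too, read 9.49, 9.62, 8.93, 9.22 and 9.28 at pregnancy and 6.10, 5.57 and 6.43 at lactation and fell by 3.28 (SE 0.20, adjusted p = 8.54e-09).

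T and NK cell genes rose in 10 of 16 cases (62.5%) and fell in none, with a median of 0.54, and 9 rose without the arrays that stood apart. Of all genes with a mean level of 4 to 5, 58.1% rose (median 0.48), and at 5 to 6 48.2% rose (median 0.38). The list median was 4.71 to 5.07 on the pregnancy arrays and 5.45 to 6.06 on the lactation arrays, and the levels are means over all arrays. The list was thus near the share at 4 to 5 and above that at 5 to 6. With array medians equal 5 rose, after quantile normalization 7 and with cyclic loess 6. Cd8a, the co-receptor of cytotoxic T cells, read 6.12, 5.74, 5.90, 6.20 and 5.95 at pregnancy and 7.38, 7.31 and 7.32 at lactation and rose by 1.36 (SE 0.17, adjusted p = 1.06e-05). Il2rb, an interleukin receptor chain, rose by 1.07 (SE 0.16, adjusted p = 4.57e-05). Cd3g read 4.43, 4.22, 4.66, 4.31 and 4.52 at pregnancy and 4.22, 6.16 and 4.26 at lactation and was not called (adjusted p = 0.353), with lactation array 2 alone high. Of 25 chemokines 9 rose and 2 fell, 9 and 1 without the arrays that stood apart, and 6 and 4 with array medians equal. Ccl28, which draws IgA plasma cells to mucosa and gland, read 4.61, 4.69, 4.85, 4.05 and 5.41 at pregnancy and 10.2, 10.3 and 10.4 at lactation, a rise of 5.55 (SE 0.24, adjusted p = 8.14e-10). Cxcl13, which draws B cells, rose by 1.47 (SE 0.24, adjusted p = 0.000132), and Cxcl17 rose by 1.53 (SE 0.26, adjusted p = 0.00018). Macrophage and complement genes fell in 6 of 15 cases and rose in 3, 2 and 2 without the arrays that stood apart, 5 and 4 after quantile normalization and 4 and 4 with cyclic loess. The list median was -0.86 as deposited, and -0.10 and -0.02 in the last pair of settings. Mrc1, a mannose receptor, fell by 1.86 (SE 0.30, adjusted p = 0.000107), with arrays at 6.06 to 7.35 at pregnancy and 4.62 to 5.20 at lactation, and C1qc fell by 1.94 (SE 0.43, adjusted p = 0.00125).

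Immediate early genes fell in 12 of 22 cases and rose in 4, 12 and 3 without the arrays that stood apart, and 9 and 5 after quantile normalization. Falls made up 54.5% of the list, against 55% of all genes at a mean level of 7 to 8 and 40.9% at 6 to 7. The list median was 7.37 to 7.94 on the pregnancy arrays and 6.74 to 6.86 on the lactation arrays. Egr1, a growth-induced zinc finger factor, read 10.3, 10.5, 10.6, 10.2 and 9.78 at pregnancy and 6.34, 7.42 and 6.47 at lactation and fell by 3.52 (SE 0.42, adjusted p = 6.28e-06). Jun fell by 3.59 (SE 0.66, adjusted p = 0.000292), Ier2 fell by 2.54 (SE 0.23, adjusted p = 4.46e-07), and Myc fell by 2.49 (SE 0.33, adjusted p = 1.67e-05). Fosl1 rose by 1.11 (SE 0.16, adjusted p = 3.05e-05). Per the labels' protocols the glands were frozen at once on collection. In the list of involution and acute phase genes 3 rose and 9 fell of 22 as deposited, 2 and 7 without the arrays that stood apart, and 6 and 6 after quantile normalization. Lbp, the lipopolysaccharide-binding protein, rose by 2.49 (SE 0.38, adjusted p = 6.37e-05), with arrays at 8.53 to 10.2 at pregnancy and 11.7 to 12.000 at lactation, and Lcn2, lipocalin 2, rose by 1.38 (SE 0.43, adjusted p = 0.0125). Hp, haptoglobin, read 7.91, 8.73, 6.63, 9.72 and 7.60 at pregnancy and 5.23, 4.76 and 5.64 at lactation and fell by 2.91 (SE 0.67, adjusted p = 0.00169). Osmr, the oncostatin M receptor, fell by 2.43 (SE 0.54, adjusted p = 0.00133).

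Among 45 mammary transcription factors 28 fell and 6 rose, with a median of -0.87, 25 and 6 without the arrays that stood apart, 19 and 10 after quantile normalization and 19 and 8 with cyclic loess. Notch1 read 10.1, 10.9, 10.4, 10.2 and 10.5 at pregnancy and 6.37, 7.14 and 6.75 at lactation and fell by 3.65 (SE 0.24, adjusted p = 2.38e-08). Id4, a basal and progenitor factor, read 8.69, 9.28, 8.87, 11.1 and 5.80 at pregnancy and 5.82, 5.59 and 5.98 at lactation, a fall of 2.96 (SE 0.74, adjusted p = 0.00315). Pregnancy array 5 lay within the range of the lactation arrays and array 4 was the highest. Bcl11b, a basal stem cell factor, rose by 1.27 (SE 0.15, adjusted p = 4.58e-06), which was not called with all probe sets averaged (0.41, adjusted p = 0.0674). Of 20 imprinted genes 7 rose and 7 fell, both with all arrays and without those that stood apart, and 5 and 5 after quantile normalization. Peg3, a paternally expressed zinc finger gene, read 9.13, 8.92, 9.17, 9.34 and 9.41 at pregnancy and 5.63, 5.34 and 5.42 at lactation and fell by 3.73 (SE 0.19, adjusted p = 2.16e-09). Another of its probe sets fell by 1.22, and 2 dimmer ones were called higher. Dlk1, a membrane-bound Notch ligand, rose by 1.06 (SE 0.17, adjusted p = 8.72e-05). Of 18 clock genes 5 rose and 6 fell, as they did without the arrays that stood apart, but 7 and 4 after quantile normalization. Dbp, a clock output factor, read 6.999, 8.45, 6.90, 8.30 and 8.09 at pregnancy and 5.61, 5.63 and 5.47 at lactation and fell by 2.18 (SE 0.43, adjusted p = 0.000545), and Cry1, a repressor of the clock, fell by 1.16 (SE 0.14, adjusted p = 1e-05).

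The change in QSi5 was then set against that in CBA/CaH, in 1 fit with an interaction term. Of 18193 genes, 18 differed between the strains in their change (0.0989%), 8 with a higher change in QSi5 and 10 with a lower one. In all, 6 of the 18 were called in both strains in opposite directions, 7 in QSi5 only, 3 in CBA/CaH only and 2 in both in the same direction. Called in both strains in the same direction were 9732 genes. Over probe sets the count of strain differences was 47, and it was 84 without pregnancy QSi5 array 4 and 25 without lactation QSi5 array 1.

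Mt2 had the largest difference of changes among the 18, and Mt1 came after Fhad1, Coro2a and Ccdc122. Mt2 fell in QSi5, as given above, and read 9.45, 11.003, 9.18, 10.2 and 9.30 in pregnant and 12.3, 9.59 and 11.01 in lactating CBA/CaH mice. Its change in QSi5 was lower than that in CBA/CaH (1.15) by 5.63 (difference of changes -5.63, SE 0.72, adjusted p = 0.00451). Mt1 read 11.9, 12.8, 11.7, 12.1 and 11.9 and then 13.95, 12.7 and 12.8 in CBA/CaH, where it rose by 1.06. The difference of changes was -2.83 (SE 0.41, adjusted p = 0.0109), and its dimmer probe set differed by 0.20 in QSi5 (adjusted p = 0.533). In both genes the strains overlapped at pregnancy only through CBA/CaH array 2, at 11.003 in Mt2 and 12.8 in Mt1. The other CBA/CaH pregnancy arrays lay below every QSi5 pregnancy array, whereas at lactation all QSi5 arrays lay below all CBA/CaH arrays. The difference of changes therefore includes a difference in level at pregnancy. Without the arrays of both strains that stood apart the call was lost for Mt2 (-4.73, adjusted p = 0.184) and Mt1 (-2.22, adjusted p = 0.379). Mt1 was also lost with the 3 pregnancy QSi5 arrays that stood apart left out (adjusted p = 0.057) and with its probe sets averaged (-1.85, adjusted p = 0.0731). Mt2 was called in 27 of 28 alternatives. The zinc importer Slc39a4 and exporter Slc30a1 fell in QSi5 (above), and their interaction adjusted p was 0.996 and 0.873, so no strain difference was called for them.

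Hspa1b, an inducible HSP70, read 9.66, 9.45, 9.06, 9.21 and 10.1 at pregnancy and 6.33, 6.03 and 6.66 at lactation in QSi5 and fell by 3.15 (SE 0.24, adjusted p = 9.05e-08). In CBA/CaH it fell by 1.11, and the difference of -2.05 (adjusted p = 0.0265) was called in 16 of 28 alternatives. Cyp2f2, a cytochrome P450, fell by 2.54 (SE 0.22, adjusted p = 2.71e-07) in QSi5, against a difference of -0.50 in CBA/CaH, and the strains differed by -2.04 (adjusted p = 0.0114, called in 24 of 28 alternatives). Rars differed by -1.61 (adjusted p = 0.0221), and its CBA/CaH difference was -0.18.

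In some further genes the strains had unlike levels already at pregnancy, as in Coro2a, Ccdc122 and Pdxdc1. In D130037M23Rik they overlapped at pregnancy and lay apart at lactation. Coro2a, a coronin, read 8.83, 9.67, 8.84, 7.28 and 9.47 at pregnancy and 6.89, 6.55 and 7.42 at lactation in QSi5 but 5.50, 5.32, 4.95, 5.04 and 5.06 and then 7.47, 7.39 and 7.29 in CBA/CaH. It fell by 1.87 (SE 0.38, adjusted p = 0.000774) in the one and rose by 2.21 in the other, and the levels of the strains overlapped at lactation (difference of changes -4.07, adjusted p = 0.00584, called in all 28 alternatives). Fhad1, a forkhead-associated domain protein, was at 3.82 to 5.53 at pregnancy and 4.05 to 5.07 at lactation in QSi5, while CBA/CaH arrays read 5.38, 6.47, 4.93, 4.81 and 4.74 and then 9.50, 10.1 and 10.95. The difference of changes was -4.82 (adjusted p = 0.0052, called in 26 of 28 alternatives). Ccdc122 was at 3.72 to 4.46 at pregnancy and 3.997 to 4.41 at lactation in QSi5, and at 7.90, 8.15, 7.53, 7.84 and 7.45 and then 4.79, 5.17 and 4.71 in CBA/CaH, a difference of changes of 2.98 (adjusted p = 0.000453). Pdxdc1 rose by 1.46 (SE 0.24, adjusted p = 0.000138) in QSi5 from a level far below that of CBA/CaH, 4.30 to 5.46 against 9.42 to 9.91 at pregnancy. Its other probe sets were not called in QSi5, the next brightest going from 8.07 to 8.23 (adjusted p = 0.49). The strain difference of 2.20 was called in 22 of 28 alternatives and was 0.40 (adjusted p = 0.984) with probe sets averaged. Cyp7b1, an oxysterol hydroxylase, rose by 1.49 (SE 0.20, adjusted p = 1.7e-05) in QSi5 and differed by -0.16 in CBA/CaH. Its strain difference was called in 14 of 28 alternatives. Cspg5, a brain chondroitin sulfate proteoglycan, differed by 0.28 in QSi5 (adjusted p = 0.295) and fell by 1.86 in CBA/CaH. Capn9, a calpain protease, rose by 0.57 (SE 0.17, adjusted p = 0.00904) in QSi5, which 4 alternatives did not call, and fell by 1.01 in CBA/CaH. D130037M23Rik, a gene known by its cDNA name, rose by 2.45 (SE 0.15, adjusted p = 1.01e-08) and by 1.04 in the strains. Their differences of changes were 2.14, 1.58 and 1.41, with an adjusted p of 0.0114 for each. They were called in 26 of 28, 26 of 27 and 20 of 28 alternatives.

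**Figure D5:**
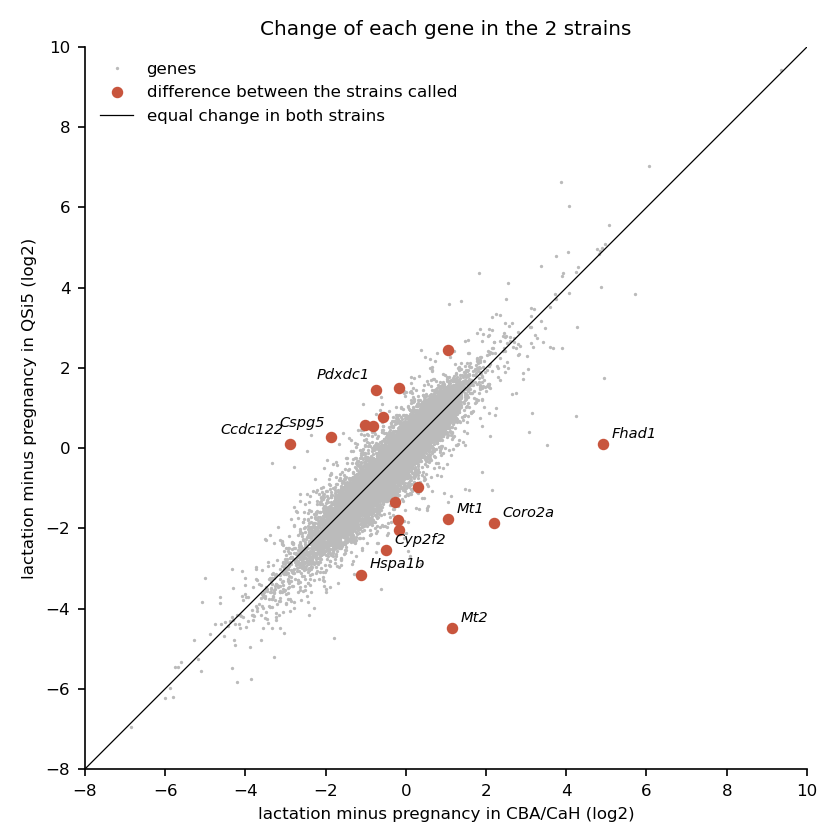
Difference between lactation and pregnancy (log2) of each gene in CBA/CaH (x axis) and QSi5 (y axis), with the line of equal change. The 18 genes whose change differed between the strains are marked, and those differing by more than 2 log2 units are named, with Mt2 at 1.15 and -4.48.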

How the data were processed

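The authors deposited log2 expression values per probe set, which the submitters' processing notes name RMA, and whether all arrays were normalized together is not given in the sources used here. All 26 columns of the value table were mapped to samples by title, leaving 0 unmapped. Of 45101 probe sets, 64 controls were left out and 45037 tested with limma 3.58.1 (R 4.3.3), on the log2 values as deposited, in a fit of the 16 parental arrays with 1 mean per stage and strain. Benjamini-Hochberg adjustment ran over all probe sets, with a threshold of 0.05. The platform annotation gave 34945 probe sets 1 symbol, 932 several and 9160 none, and a gene stands for its brightest probe set. The number of arrays limits the precision.

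Genes named were taken from a set fixed by rule: the 15 highest and 15 lowest called without overlap, the leading members of each of 46 lists, defining markers, and the leading strain differences. Not every member of that set is named, and dimmer probe sets that were not called are not given for every gene. Members and lists were chosen with earlier results of these data known. Alternatives were the filter on low levels, scaling, samples, array weights, a Gapdh covariate, the replicate block, leaving out each array or those that stood apart, and averaging probe sets. Same-numbered samples of the stages did not deviate together (correlations -0.004, 0.072 and 0.022 in QSi5). Figures were drawn with matplotlib 3.10.9.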

Additional observations from a re-analysis of the deposited data

Results flagged for a closer look

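In 32 of the 216 genes named, 1 of the 5 pregnancy QSi5 arrays lay far from the other 4, with a gap above Dixon's critical value. Chance marks about 1 in 20 groups. Array 4, which has the highest 3' minus 5' value of the Gapdh control, was the one apart in 30 of them, and what sets it apart was not tested. On pregnancy array 4 these were Armcx4 at 7.84, BC006965 at 9.86, Cldn1 at 5.62, Cldn4 at 7.24, Cldn8 at 8.25, Col4a5 at 6.85, Csn1s1 at 13.07 and Csn3 at 12.85. It further read low in Ebp at 8.03, Elf5 at 10.98, Fads1 at 9.79, Fdps at 5.77, Hadha at 8.81, Hsp90b1 at 10.1 and Id2 at 10.29. Also low on it were Ier2 at 9.09, Jun at 5.91, Kit at 7.43, Mpc1 at 7.31, Muc15 at 10.999, Myc at 7.86 and Pdzrn3 at 7.84. The remaining low readings were Plb1 at 10.67, Rab18 at 8.51, Rspo1 at 9.91, Sec23a at 7.61, Stat5a at 9.15 and Tnfsf11 at 4.93. Array 4 was instead the highest in Kcnn4, at 12.59, and Rpia, at 9.50. Array 2 was the lowest in Col4a3, at 4.66, and Wfdc18, at 14.33. Of 46 list medians, 5 had array 4 apart. It read 9.31 for the citric acid cycle, 13.02 for ribosomal proteins, 8.94 for the translocon and vesicle coats, and 8.83 for luminal markers, all low, and 5.88 for brown fat markers, which was high.

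The change from pregnancy to lactation differed between QSi5 and CBA/CaH, by the interaction term of the limma fit, in 13 of the genes named. The change in QSi5 was higher by 2.98 in Ccdc122, 2.19 in Pdxdc1, 2.14 in Cspg5, 1.65 in Cyp7b1, 1.58 in Capn9 and 1.41 in D130037M23Rik. The difference of changes was -5.63 in Mt2, -4.82 in Fhad1, -4.07 in Coro2a, -2.83 in Mt1, -2.05 in Hspa1b, -2.04 in Cyp2f2 and -1.61 in Rars.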

How the results depend on the processing

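As deposited, 16186 probe sets were higher at lactation and 10410 lower. The count of higher probe sets moved to 6388 with a mean level of at least 5, which tests fewer probe sets, to 9733 with array medians set equal and to 9506 with cyclic loess. The cause of the last pair was not tested. The count of lower probe sets stayed within 1.5 times under every alternative run. Of the 47 probe sets whose change differed between strains, the count became 79 with all arrays in the fit, 152 with array weights, 84 with the Gapdh covariate and 71 without the pregnancy QSi5 arrays that stood apart. Leaving out 1 array at a time gave 25 to 84, with 84 without pregnancy QSi5 array 4, 29 without pregnancy QSi5 array 2, 25 without lactation QSi5 array 1, and 30 and 29 without lactation CBA/CaH arrays 2 and 3. With the replicate block the counts were 14820 higher, 9835 lower and 32 for the strain difference, and the numbers do not pair the samples. The sign turned in Cd24a with cyclic loess (0.35), and in Cenpa (-0.72), Ppargc1a (-0.21) and Timp2 (-0.052) with probe sets averaged. Of 198 genes named and called, 185 were called under every alternative run. Values near 15.1 may limit what rises in bright milk genes can show, which was not tested.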
